A study of Mus musculus with 282 samples.

Results

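The genes described here are 10 homeobox genes of the HoxA and HoxB clusters: Hoxa3, Hoxa5, Hoxa7, Hoxa9 and Hoxa10 on mouse chromosome 6, and Hoxb2, Hoxb3, Hoxb4, Hoxb5 and Hoxb8 on chromosome 11. They were chosen by symbol, each symbol leading to 1 Ensembl gene, and are 10 of the 49671 Ensembl genes and of the 39 Hox genes in the count table. The cells were single hematopoietic stem cells (HSCs), sorted from mouse bone marrow as LSK CD48-/lo CD150+, LSK being cells that lack lineage markers and carry both Sca-1 and Kit. The mice were R26 rtTA/rtTA, a doxycycline-dependent transactivator at the ubiquitously active Rosa26 locus, and Col1a1 H2B-GFP/H2B-GFP, a histone H2B-GFP transgene. They were not induced with doxycycline. There were 6 mice, 12 to 22 weeks old, in 2 experiments, and the mouse of each cell is not labelled. All cells thus formed 1 group with no other condition, and the question taken up is which positions of the clusters were detected in these cells, at what level and together with which others.

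A cell was kept where its gene counts reached 100000 and its number of genes 1000, which held for 232 of 282 wells. The labels name a library series and an HSC code, which give 6 sets. Series 29 (L29) holds codes HSC-3 and HSC-4, and series 32 (L32) the codes from HSC-2 to HSC-5. The sets hold 22 to 46 kept cells and are not known to be separate animals, so an SD over sets may be technical. The median depth of a kept cell was 280096 gene counts (116009 to 1680714). Cells of L29 HSC-4 differed from all others: their median number of genes was 4151, where the 5 other sets had 5126 to 5686, and mitochondrial genes took 6.66% of their counts, where the other medians were 3.28% to 3.73%. All 10 of 10 listed HSC markers were at 10 CPM (reads scaled to a common total per cell) in at least 10% of cells. Among the markers of other blood lineages, 0 of 5 myeloid, 0 of 5 erythroid, 0 of 3 B cell, 0 of 3 T and NK cell and 0 of 3 mast cell and basophil genes reached that share. The megakaryocyte list, many of whose genes HSCs also express, reached it with 4 of 5 genes, the multipotent and lymphoid progenitor list with 2 of 6, and the endothelium and stroma list with 1 of 6.

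Hox proteins are transcription factors that bind DNA through a homeodomain, encoded by the homeobox. In the embryo the order of the genes along each cluster follows the order in which they are switched on along the body axis, and genes with the same number in different clusters are paralogs of 1 ancestral gene. In blood formation Hox proteins act with the cofactors of the TALE class (Meis and Pbx), the histone methyltransferase complex of Kmt2a (MLL) and menin keeps HoxA genes active, and Hoxa9 with Meis1 is best known for driving acute myeloid leukemia when overexpressed.

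The homeobox bears on how far reads from one member can be told from those of another. That of Hoxa10, 1 of the 3 most widely detected members, is given in coding orientation from the GENCODE M21 annotation, and capitals mark the longest run identical to a stretch of the homeobox of another member, here Hoxb2.
Hoxa10: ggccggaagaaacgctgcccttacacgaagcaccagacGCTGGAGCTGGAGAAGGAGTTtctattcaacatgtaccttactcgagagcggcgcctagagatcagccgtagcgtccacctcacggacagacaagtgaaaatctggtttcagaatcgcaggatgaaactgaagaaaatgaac
The run in capitals is 21 bases long, and no longer exact coding run of Hoxa10 was found in any other Hox gene of the table. The paralogs Hoxa3 and Hoxb3 were closer, with homeoboxes identical at 93.9% of bases and a common run of 33 bases. The longest exact coding run between any 2 members was 47 bases, and 52 bases between a member and any Hox gene. Read length and the treatment of reads that fit several loci are not given in the sources used here, so a misplacement of reads within such runs was not tested.

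Hoxa9 was the most widely detected Hox gene, at 10 CPM or more in 112 of 232 cells (48.3%, exact 95% interval 41.7% to 54.9%). In the median cell 10 CPM correspond to 2.8 reads. Over the 6 sets the share of cells with Hoxa9 ranged from 25.6% in L29 HSC-4 over a median of 52.4% to 68.4% in L32 HSC-4, a mean of 49.4% ± 15.8 (SD, n = 6 sets). The gene is annotated at chr6:52223100-52231089 on the minus strand in mm10. In cells where it was detected, its level had a median of 253 CPM and reached 1277 CPM, with quartiles at 105 and 396 CPM.

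Its neighbours in the posterior part of the cluster came next. Hoxa10 (chr6:52231197-52240854, minus strand), whose overexpression is known to expand myeloid progenitors, was detected in 74 cells (31.9%, interval 26.0% to 38.3%), with 20.9%, 32.2% and 43.6% as the lowest, median and highest share of a set. Hoxa7 (chr6:52214491-52221854, minus strand), also known as a target of MLL fusion proteins, was found in the same number of cells, 74. Its sets were less alike, from 19.6% over a median of 30.7% to 57.9% in L32 HSC-4. Hoxa10 was thus highest in L32 HSC-5 and lowest in L29 HSC-4, and Hoxa7 was highest in L32 HSC-4 and lowest in L29 HSC-3.

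Hoxb5 (chr11:96303336-96306121, plus strand), known from reporter mice as a marker of long-term HSCs, was the only HoxB gene of the table to reach 10% of cells. It was detected in 40 cells (17.2%, interval 12.6% to 22.7%). The lowest, median and highest share of a set were 4.65%, 17.7% and 26.3%, with L29 HSC-4 at the low end. Where it was detected, Hoxb5 had a median of 120 CPM, a level like that of Hoxa7 in its own positive cells (113 CPM). Hoxa5 (chr6:52201754-52204587, minus strand), which is known for roles in lung and in myeloid differentiation, was detected in 27 cells (11.6%, interval 7.81% to 16.5%). Its sets lay between 7.69% and 22.7%.

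The other 5 members were each found in fewer than 10% of cells. Hoxa3, best known for pharyngeal and thymus development, was detected in 17 cells (7.33%), and in 4.55% to 10.9% of the cells of a set. Hoxb4, known for expanding HSCs when overexpressed, was detected in 9 cells (3.88%, interval 1.79% to 7.24%), 5 of them among the 39 cells of L32 HSC-5 and 0 in L29 HSC-4 and L32 HSC-4. Hoxb2, a hindbrain patterning gene, was detected in 8 cells (3.45%), and Hoxb3, a paralog of Hoxa3, in 7 (3.02%). Hoxb8, known for blocking myeloid differentiation when overexpressed, was detected in 5 cells (2.16%), all of library series 32. These genes were sparse but not weak in every cell, since their highest levels in a cell ranged from 73.2 CPM (Hoxb8) to 493 CPM (Hoxa3).

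**Figure D1:**
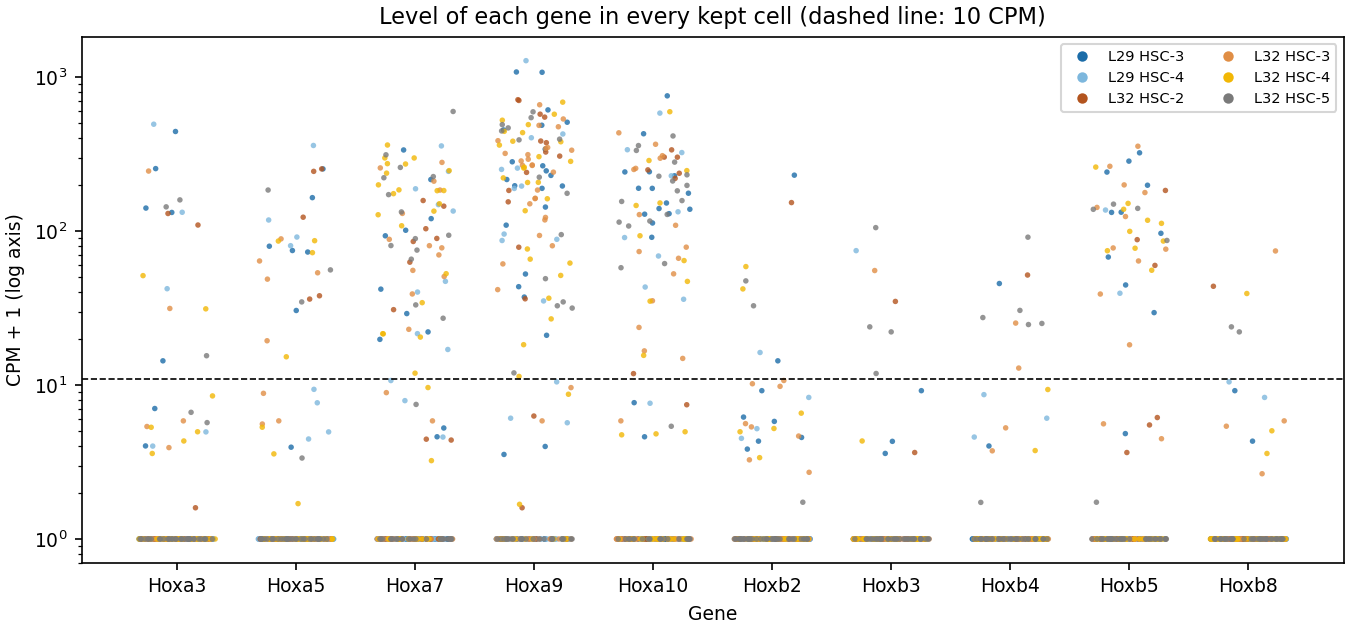
CPM + 1 on a log axis of each of the 10 genes in every kept cell, 1 point a cell, coloured by set, with a dashed line at 10 CPM. Hoxa9, Hoxa10 and Hoxa7 have many cells near or above 100 CPM and many at 0, and Hoxb8 stays under 100 CPM in every cell.

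In all, 5 of 10 members were detected in at least 10% of cells, against a background of 19.5% of all Ensembl genes that reached this share. Across the table's 39 Hox genes the same 5 were the only ones to reach it, and 18 were in 0 cells at 10 CPM, which for each allows a share of up to 1.29%. Detection thus had a peak from Hoxa7 to Hoxa10 and another single one at Hoxb5. Between the detected positions lay genes with almost no reads: Hoxa6, between Hoxa5 and Hoxa7, had 3 reads over all cells, Hoxa4 was detected in 1 cell and Hoxb7 in 1 cell. Past the posterior end, Hoxa11 was at 10 CPM in 0 cells and Hoxa13 in 1. Of the genes that are no members, Hoxb6, next to Hoxb5, came closest, in 6.03% of cells. The 9 HoxC genes of the table stayed at or under 1.29% of cells and the 9 HoxD genes at or under 4.31%, the latter for Hoxd8, which was in 18.6% of the cells of L29 HSC-4 and at 35.7 CPM in near-empty wells.

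**Figure D2:**
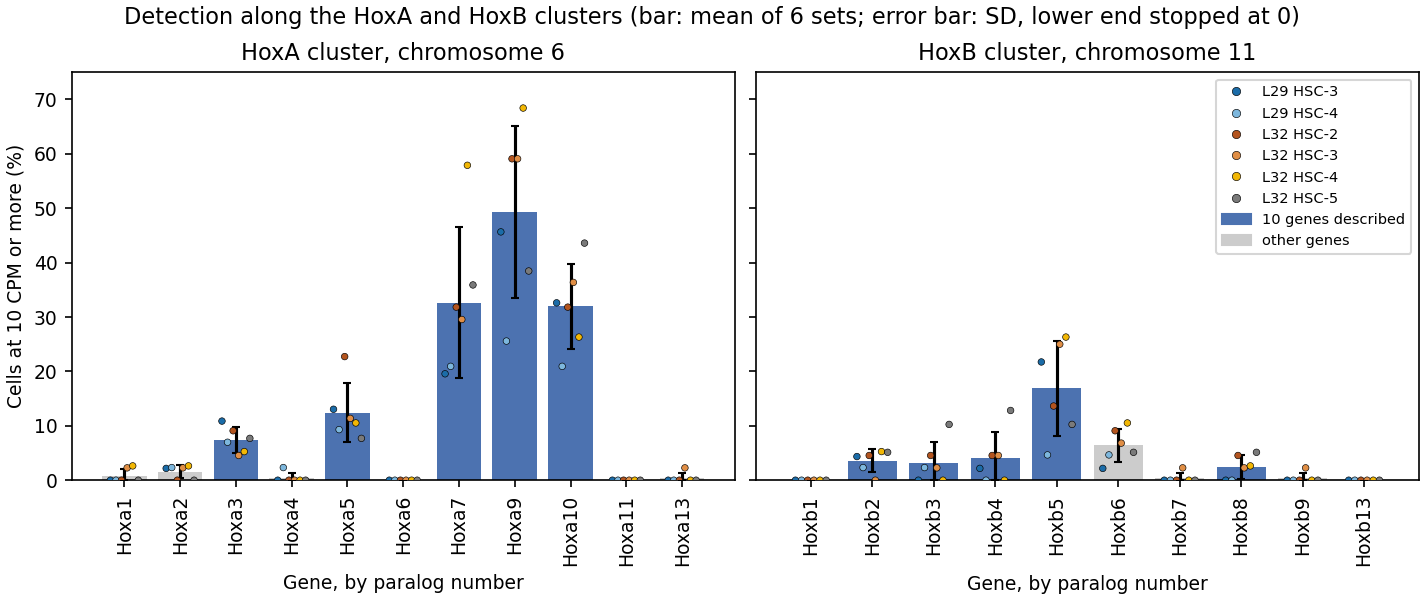
Share of kept cells at 10 CPM or more for each HoxA (left) and HoxB (right) gene in order of paralog number; bars are means of the 6 sets, error bars the SD with its lower end stopped at 0, and points the sets. Blue bars are the 10 genes described, grey bars the other genes, and the highest bars stand at Hoxa9 (49.4%), Hoxa7, Hoxa10 and Hoxb5.

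Of 24275 reads on all Hox genes in kept cells, the HoxA cluster held 86.6% and the HoxB cluster 12.3%, and Hoxa9 alone held 41.8%. Levels between genes were compared per length, as CPM of the summed reads of a set per kb of the table's gene length. On that scale Hoxa9 stood at 24.0 ± 7.23 CPM per kb (SD, n = 6 sets), Hoxa10 at 19.7 ± 6.80 and Hoxa7 at 17.3 ± 12.1. Hoxa9 exceeded Hoxa10 in 4 of 6 sets and Hoxa10 exceeded Hoxa7 in 4 of 6, so the order of these 3 was within the spread of the sets. Hoxa5 (8.07 ± 6.87) and Hoxb5 (7.62 ± 5.06) formed a second level, with Hoxa5 the higher of the 2 in 3 of 6 sets. Hoxa3 followed at 2.14 ± 1.26 and Hoxb2 at 1.08 ± 0.938 CPM per kb. Hoxb4 (0.538), Hoxb3 (0.333) and Hoxb8 (0.333) were the lowest, and Hoxb3 exceeded Hoxb8 in only 2 of 6 sets. The steps from Hoxa7 to Hoxa5 and from Hoxb5 to Hoxa3 were each seen in 5 of 6 sets.

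The 10 cells with most reads of a gene held 30.6% of the Hoxa9 reads and 49.9% of the Hoxa7 reads. Near-empty wells, 22 wells of L32 HSC-2 plus 16 of L32 HSC-3 with fewer gene than spike-in reads, gave the background. There Hoxa9 was at 6.49 CPM, and the kept cells of those 2 sets had 156 CPM. For Hoxa7 the values were 1.62 and 31.1 CPM, and for Hoxa10 8.11 and 79.4 CPM. For Hoxa5 they were 4.86 and 18.6 CPM, and for Hoxb4 0 and 1.19 CPM. Hoxb5 was at 14.6 against 25.7 CPM, from 9 reads in 4 of the near-empty wells. Hoxa3 (16.2 against 15.1 CPM), Hoxb2 (14.6 against 2.75), Hoxb3 (1.62 against 1.43) and Hoxb8 (1.62 against 1.6) were no lower in near-empty than in kept wells, each from 1 to 10 reads in the former, with all 10 reads of Hoxa3 in 1 well. The part of free RNA in the detection of these 4 genes, and in that of Hoxb5, was not tested.

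Reads of neighbouring transcripts also touch some members. Antisense Hoxb3os overlaps 52.9% of the exon bases of Hoxb3 and 27.3% of those of Hoxb2, and Hoxaas3 overlaps 20.4% of those of Hoxa7. For Hoxa3 other genes overlap 25.4% of its exon bases on the opposite strand and 8.01% on its own. The sources used here do not say how strand, or a read in an overlap, was treated in counting. Where Hoxb2, Hoxb3, Hoxa3 and in part Hoxa7 overlap these partners, reads may thus be mixed or left out. Reads left out would lower the level per kb of these members, which was not tested. Mir196b, with 100% of its bases inside exons of Hoxa9 on the same strand, had 0 reads. For Hoxa9 the overlap was 1.52%, for Hoxb5 3.59%, and for Hoxa5, Hoxa10, Hoxb4 and Hoxb8 it was 0. Of the transcripts inside the clusters that are no Hox genes, 1 predicted gene in the HoxB interval was at 10 CPM in 100% of cells, and at 227 CPM in near-empty wells. Antisense Hoxb5os was at 10 CPM in 10.8% of cells, Hoxb3os in 6.03% and Hotairm1 in 5.17%. In near-empty wells Hotairm1 had 243 CPM, all from 1 well.

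The upstream regions of 2 members are shown, written 5′ to 3′ in the direction of the gene, because Hoxa9 was the most and Hoxb8 the least detected member with a RefSeq promoter entry. Such entries, in build GRCm38.p6, matched 7 of 10 members. Each run is the 250 bases before the RefSeq start, and capitals mark matches to the motifs searched.
Hoxa9 upstream, chr6:52227371-52227620, minus strand: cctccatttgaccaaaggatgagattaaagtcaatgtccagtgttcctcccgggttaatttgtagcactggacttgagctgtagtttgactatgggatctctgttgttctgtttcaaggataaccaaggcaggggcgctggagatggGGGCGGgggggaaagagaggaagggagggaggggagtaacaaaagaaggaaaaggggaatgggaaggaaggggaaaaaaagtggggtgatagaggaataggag
Hoxb8 upstream, chr11:96281655-96281904, plus strand: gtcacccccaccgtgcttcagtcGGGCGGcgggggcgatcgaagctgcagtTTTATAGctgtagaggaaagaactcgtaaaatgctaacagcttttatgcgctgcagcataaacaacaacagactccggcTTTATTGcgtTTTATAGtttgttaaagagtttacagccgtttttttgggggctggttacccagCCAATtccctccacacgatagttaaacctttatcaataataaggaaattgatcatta
The motifs were searched on both strands: the MEIS core TGACAG, the PBX-HOX composite TGATTNAT, the TATA box TATAAA, the CCAAT box CCAAT, the CDX site TTTATNG and the GC box GGGCGG. Of 32851 promoter windows of all genes, 15.9%, 2.82%, 12.4%, 33.8%, 9.81% and 32.7% held them, in that order. The Hoxa9 window held 1 GC box, 103 bases before the start, and lies within the gene interval of the count table but outside its exons. The Hoxb8 window held 3 CDX matches, 2 TATA matches, 1 CCAAT box and 1 GC box. Both TATA matches, read on the opposite strand, lie inside CDX matches, so they are the same letters. Of the genes for Cdx proteins, which bind such sites and regulate Hox genes in the embryo, 0 of 3 were at 10 CPM in any cell, with 10 reads in all. A match describes letters, not binding.

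Cells held between 0 and 6 of the 10 members. In 47 cells (20.3%, interval 15.3% to 26.0%) none was detected, in 73 cells 1, in 55 cells 2, in 43 cells 3, in 10 cells 4, in 3 cells 5 and in 1 cell 6. The mean was 1.61 members a cell. At least 1 HoxA member was found in 75.4% of cells and at least 1 HoxB member in 24.1%. Both clusters were represented in 46 cells (19.8%), HoxA alone in 129 and HoxB alone in 10. Most cells with a HoxB member thus also had a HoxA member, while most cells with a HoxA member had no HoxB member. With shares of 75.4% and 24.1% over all cells, both would hold without any relation between the clusters.

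The sets differed in this count. The mean ranged from 0.930 members a cell in L29 HSC-4 to 2.03 in L32 HSC-4, and L29 HSC-4 held 18 of the 47 cells without a member. That set also had the fewest genes per cell and the highest mitochondrial share. Across the 232 cells, which share 6 sets and differ in depth, the number of members had a Spearman rho of 0.04 with total counts, 0.25 with genes detected and -0.27 with the mitochondrial share, given as descriptions. The part of RNA quality in the count was not tested. Without L29 HSC-4 the mean was 1.76 members a cell.

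**Figure D3:**
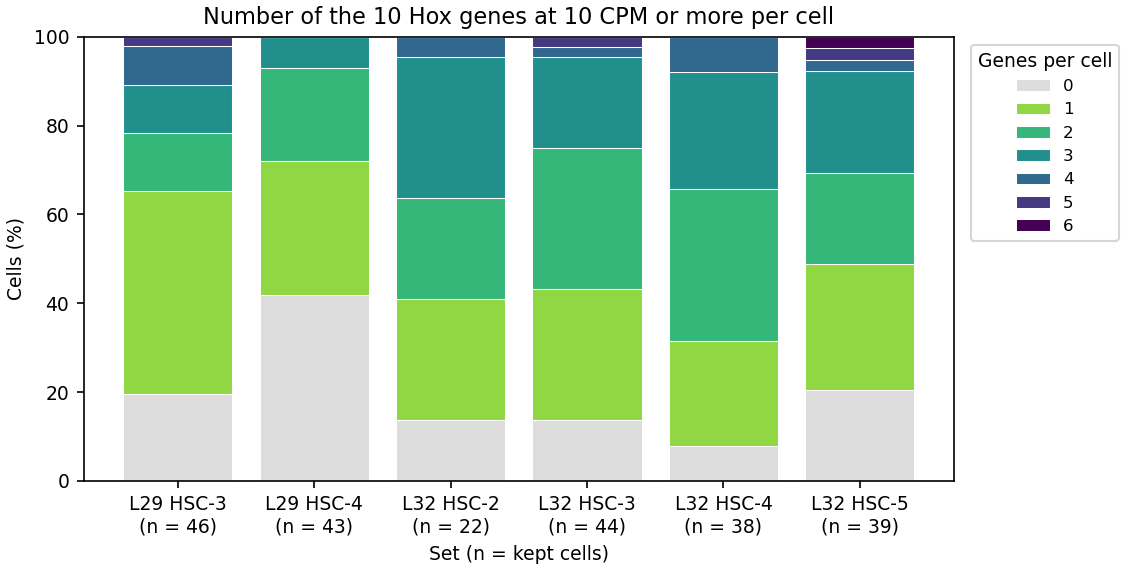
Stacked shares of kept cells (%) by the number of the 10 Hox genes at 10 CPM or more, for each set. The grey part, cells with none, is largest in L29 HSC-4 (41.9%) and smallest in L32 HSC-4 (7.89%).

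Among the 5 members in at least 10% of cells, the most frequent combination was Hoxa9 alone, in 29 cells, followed by Hoxa9 with Hoxa10 in 18, Hoxa10 alone in 15 and Hoxa7 alone in 14. Hoxa7, Hoxa9 and Hoxa10 were found together without the other 2 in 12 cells. No cell had all 5. For each pair the number of cells with both was set against the product of the 2 shares, computed within each set and summed. Over the 10 pairs of these 5 genes, 211 joint detections were counted against 182 from the product, a ratio of 1.16, with an SD of 0.208 over the sets. By set the ratio was 1.30 in L29 HSC-3 and 1.59 in L29 HSC-4. In series 32 it was 1.10 in HSC-2, 1.11 in HSC-3, 0.998 in HSC-4 and 1.24 in HSC-5. The SD describes the spread of the sets and not the error of the ratio, and the excess was not tested.

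Single pairs lay on both sides of the product. Hoxa9 and Hoxa10 met in 44 cells against 36.1 from the product, above it in 5 of 6 sets, and 59.5% of Hoxa10 cells had Hoxa9. Hoxa9 and Hoxb5, of different chromosomes, met in 28 cells against 21.7, also above in 5 of 6 sets. Of the cells with Hoxb5, 70.0% had Hoxa9, against 43.8% of the cells without Hoxb5. Hoxa7 and Hoxb5 met in 19 cells against 13.8, and Hoxa5 and Hoxb5 in 3 against 4.78, above the product in 0 of 6 sets.

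Among HoxB members, joint detection was rare and rested largely on 1 cell. These classes of pairs were formed after the pair values were seen. The 10 pairs of 2 HoxB members had 20 joint detections against 6.46 from the product, the 10 pairs of 2 HoxA members 168 against 150, and the 25 mixed pairs 101 against 95.7. A total of 9 cells had 2 or more HoxB members. One cell of L32 HSC-5 had all 5, with Hoxb5 at 137 CPM (26 reads), Hoxb2 at 31.7, Hoxb4 at 26.4, Hoxb3 at 21.1 and Hoxb8 at 21.1 CPM, each of the last 4 from 4 to 6 reads. It was also the cell with 6 members, the sixth being Hoxa9 at 31.7 CPM, and had 189288 gene counts and 5930 genes. Without this cell the HoxB pairs had 10 joint detections against 5.01, and without L32 HSC-5 they had 7 against 3.59. For the mixed pairs the ratio was 0.939 without L29 HSC-3 and 1.06 with all sets.

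Levels were then compared across cells within each set. For each of the 5 members in at least 10% of cells, a Spearman correlation of its CPM with that of every gene was computed given genes detected, total counts and plate, and the 6 Fisher z values were tested against 0 in limma, with Benjamini-Hochberg adjustment over 9688 genes. No pair of members passed an adjusted p of 0.05. Hoxa7 with Hoxb5 had a mean rho of 0.15 (95% interval 0.01 to 0.28, positive in 4 of 6 sets) and Hoxa9 with Hoxb5 0.14 (0.0044 to 0.28, 4 of 6 sets). The SD of rho over the sets was 0.196 and 0.228 for these 2 pairs. The intervals use a variance drawn towards that of all genes, and their width hardly depends on the spread of the pair. That these 2 leave out 0 is therefore no measure of how alike the sets were. For Hoxa9 with Hoxa10 rho was 0.11 (-0.02 to 0.24) and for Hoxa7 with Hoxa9 0.11 (-0.03 to 0.25). The lowest was Hoxa5 with Hoxa7 at -0.10 (-0.24 to 0.04). On simulated data the fit called strong relations but none of the size seen between members. The simulated target was not given the many zeros of the members, so this does not show what the fit can call for them. The absence of a call thus says little here, and the rho values are given as a description.

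**Figure D4:**
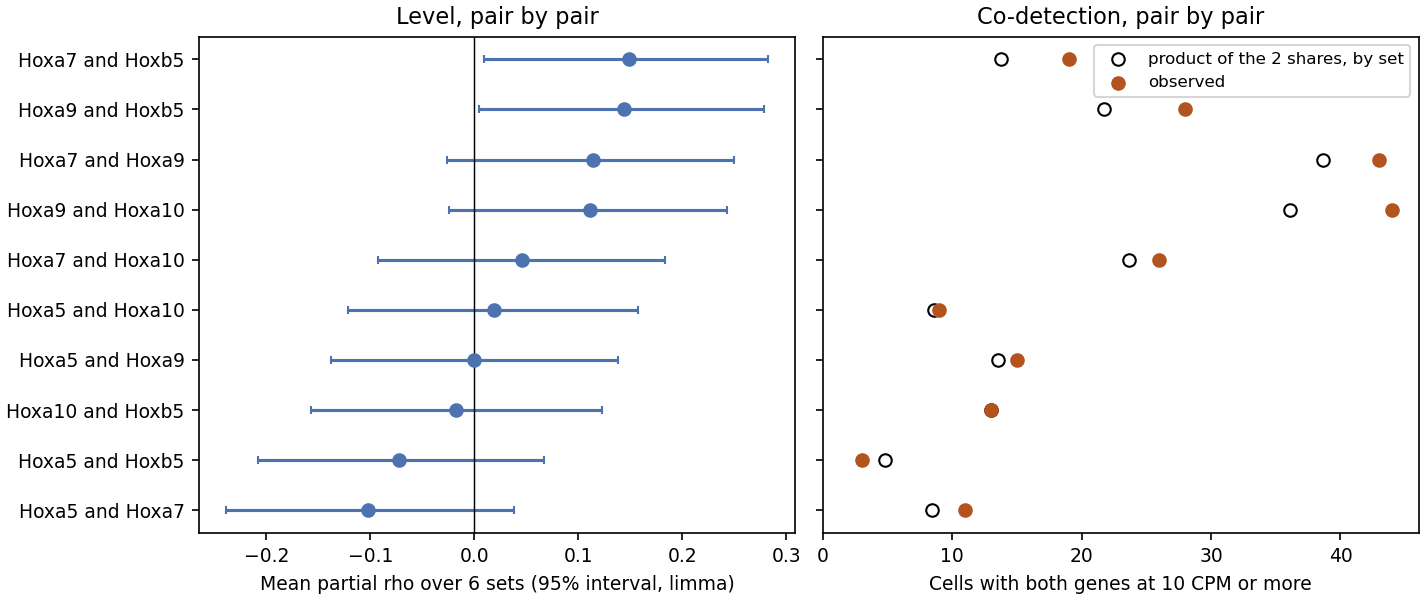
Left, mean partial Spearman rho over 6 sets with its 95% interval from limma for the 10 pairs of the 5 most detected members; right, cells with both genes at 10 CPM or more (filled) and the number given by the product of their shares within sets (open). Intervals of all pairs but Hoxa7 with Hoxb5 and Hoxa9 with Hoxb5 include 0, and Hoxa9 with Hoxa10 has the most joint cells, 44.

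Across all genes, 1 followed Hoxa10 (0.0103% of those tested), 1 followed Hoxa5 (0.0103%), and 0 followed Hoxa7, Hoxa9 and Hoxb5 (0% each). Unadjusted p-values under 0.05 were found for 476, 528, 513, 503 and 473 genes, in the order Hoxa10, Hoxa5, Hoxa7, Hoxa9 and Hoxb5, which is 4.88% to 5.45% of the genes tested. The gene that followed Hoxa10 was Pom121, a nuclear pore protein, with rho 0.37 (0.24 to 0.48), positive in 6 of 6 sets, at a limma adjusted p of 0.00225. It was called with neither a Pearson correlation (adjusted p = 0.141) nor without L32 HSC-5 (0.173). Heatr5b, which followed Hoxa5 with rho 0.33 (0.20 to 0.45) in 5 of 6 sets, had a limma adjusted p of 0.0308. Its rho had an SD of 0.273 over the sets, a spread that the limma p-value hardly reflects. Its call was lost with a Pearson correlation (0.941), without L29 HSC-3 (0.779) and without L32 HSC-5 (0.393). It is named since it was the only gene called, although its sign was not the same in all sets.

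For the members without a called gene, the genes most like them are a description. Hoxa9 had its largest positive rho with Zfp866 (0.26), Pim3, a survival kinase (0.24), and Rac2, a GTPase of blood cells (0.24), each positive in 6 of 6 sets, with limma adjusted p-values from 0.900 to 0.918. Hoxa7 came with Dach1 (0.26), Insr (0.26) and Dyrk1a (0.24), all at an adjusted p of 0.719. Hoxb5 came with Cdc34 (0.30), Slamf1, the gene of the CD150 antigen used in the sort (0.28, 6 of 6 sets), and Irf2bp1 (0.27). Their limma adjusted p-values were 0.144, 0.288 and 0.542.

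Partners of Hox proteins differed in how widely they were detected. Meis1 was at 10 CPM in 88.4% of cells, Pknox1 in 13.8% and Pbx4 in 16.4%. Against 19.5% of all Ensembl genes, 5 of 9 TALE genes reached 10% of cells. All 13 genes of the MLL, menin and Dot1l list did so. The 4 of them with the highest mean CPM were Mllt3, Kmt2a, Wdr5 and Dpy30, in 63.8%, 55.2%, 37.1% and 60.8% of cells, and Men1, the menin gene, was in 40.1%. Meis1 was thus present in most cells with and without Hoxa9, in 88.4% of the former and 88.3% of the latter. All 8 genes often reported downstream of Hoxa9 reached 10%. The 4 with the highest mean CPM were Lmo2, Myb, Cdk6 and Erg, in 90.5%, 67.2%, 38.8% and 35.3% of cells, and Pim1, lower in CPM, was in 44.8%. In near-empty wells Lmo2, Myb and Erg stood above their level in the kept cells of those sets.

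None of these partners followed a member in limma. Of the 5 TALE genes tested, 1 had a positive rho with Hoxa9 (median -0.07, against -0.00056 over all genes), and of the 13 MLL list genes 4 (median -0.03). Of the 8 genes reported downstream of Hoxa9, 5 had a positive rho with it (median 0.04). Meis1 had a rho of 0.08 with Hoxa9 (-0.05 to 0.22), positive in 6 of 6 sets, and of -0.11 with Hoxa10 (-0.24 to 0.03), negative in 6 of 6. The limma adjusted p was 0.990 and 0.985.

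The members were also set against a score of 20 genes of long-term HSCs and a score of 39 cell cycle genes, each the mean log level of its list. With the former 80 genes were called in limma (0.826%), and with the latter 49 (0.506%), of 9689 tested. None of the 5 members tested was among them in either case. Hoxb5 came closest, with rho 0.19 with the long-term HSC score (0.05 to 0.32, positive in 5 of 6 sets) at a limma adjusted p of 0.205. For Hoxa9 rho was 0.06 with the long-term HSC score (-0.09 to 0.19) and 0.06 with the cell cycle score (-0.08 to 0.20).

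The labels also divide the sets by library series. Reads were summed per set and the 2 sets of series 29 compared with the 4 of series 32 in edgeR over 16476 genes. No member passed an adjusted p of 0.05, and 0% of all genes did, while 1433 genes had an unadjusted p under 0.05. DESeq2 called 410 genes and 0 members. Hoxa9 had a mean of 111 CPM in series 29 and 146 CPM in series 32, a log2 difference of -0.49 (95% interval -1.38 to 0.41). Hoxa7 had 26.0 and 61.6 CPM, a log2 difference of -1.31 (-2.96 to 0.34). The largest log2 difference among the members was that of Hoxb8 (-2.42, edgeR adjusted p = 0.509). It stood at 0.229 CPM in series 29 and 1.20 CPM in series 32, from 66 reads in all. The series also differ in that L29 HSC-4, with its high mitochondrial share, is 1 of only 2 sets of series 29.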

How the data were processed

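A single table of raw read counts for every gene in every well was deposited. The submitters' processing notes list GSNAP, featureCounts 1.6.2 and the build mm10; Ensembl release 87 is read from the name of the table. Gene lengths are those the authors deposited. Complementary DNA from poly(A) RNA went through 22 PCR cycles, per the labels' protocols. It has no molecular identifiers, so no interval covers the error of amplification. Spike-in rows (11.7% of counts) stayed out of totals. No doublet caller was run, as each well received 1 sorted cell.

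CPM was computed from the counts of Ensembl genes. Shares carry exact Clopper-Pearson 95% intervals. These treat the kept cells as independent, so they leave out the spread between sets and between mice. Correlations were tested in limma 3.58.1, with weights by cells per set, and set sums in edgeR 4.0.16 (quasi-likelihood, TMM, filterByExpr) and DESeq2 1.42.0. Both scripts were tested on simulated data. In limma strong relations were recovered and weak ones were not called, after which the strong ones were added. The simulated target in limma was not made as sparse as the members. On simulated sums edgeR called part of the genes changed 4-fold and few of those changed by less. P-values take the sets as units, and their differences can have technical sources. In limma and edgeR the variance of a gene is drawn towards that of all genes. Such p-values and intervals thus do not measure the gene's own spread over the sets. In limma the width of an interval hardly followed that spread. Hoxa9 with Pknox1 (SD of rho 0.042) had -0.20 to 0.06, and Hoxa5 with Hoxa7 (SD of rho 0.304) had -0.24 to 0.04.

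The members and lists were chosen with earlier results of these data known, and the 2 scores and the promoter motifs were chosen after the files were seen. All 10 members are named for detection, level per length, near-empty wells and overlap, and only some of them in the other results. Other Hox and cluster genes are named at 5% of cells or where a position is described, and the 4 highest of each partner list. For genes most like a member, those called with 1 sign in 6 of 6 sets are named, or else 3 by size of rho. For members with no called gene the 3 positive ones are given. Alternatives were other detection thresholds, thinning to 100000 reads, a stricter cell filter (198 cells), other totals, covariates and correlations, and leaving out each set. Some genes and sequences that these rules take are not reported here.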

Additional observations from a re-analysis of the deposited data

Results flagged for a closer look

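The share of cells with each member and its summed CPM were examined over the 6 sets for a set far from the others by Dixon's criterion, 20 series in all, of which chance flags about 1 in 20. There were 2 such values. Hoxa5 was at 10 CPM in 22.7% of the cells of L32 HSC-2, where the next highest set had 13.0% and the lowest 7.69%. L32 HSC-2 is the smallest set, with 22 kept cells, 5 of them with Hoxa5. Hoxb4 was at 10 CPM in 12.8% of the cells of L32 HSC-5, where the next highest sets had 4.55% and the lowest 0, and these are 5 of 39 cells, among them the cell with all 5 HoxB members.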

How the results depend on the processing

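The 5 members in at least 10% of cells were 7 at a detection threshold of 1 CPM and 4 at 50 CPM, and 5 after thinning, under the stricter cell filter and without each set in turn. The mean number of members a cell rose from 1.61 to 2.06 at 1 CPM. The genes called as following a member, 2 in all, became 4 with plate as the only covariate, 1 with Pearson correlation, 7 under the stricter cell filter and 1 among genes in 20% of cells, and ranged from 1 to 4 without single sets: leaving out L29 HSC-4 gave 4, L32 HSC-4 also 4, and L32 HSC-5 gave 1. No member followed either score, and no member differed between library series, under any alternative run. Over all genes the library series gave 0 calls in edgeR, 410 in DESeq2 and 2 without a filter on low counts. With the sets of codes HSC-3 and HSC-4 only and the code as replicate block, 0 of 9 members and 0 of 15721 genes were called; the labels do not say that a code marks a common animal. The share of cells with Hoxb2 (3.45%) was 12.5% at 1 CPM and 1.29% at 50 CPM, and that with Hoxb8 (2.16%) was 6.03% and 0.431%. In the median cell 10 CPM is 2.8 reads, so a member not seen in a cell may be present below that level.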
